A study of Mus musculus with 40 samples.

Results

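The genes described here are the sensors Nlrp3, Nlrp1b, Nlrc4, Naip2 and Naip5, the adaptor Pycard and the inflammatory caspases Casp1 and Casp4 of the mouse. They were chosen by name from the inflammasome pathway, all 8 were found by symbol, and they stand among 22865 genes of the authors' expression table. Where a gene had 2 transcripts (Nlrp1b and Naip2), the one with the highest mean RNA-Seq level was used. Inflammasomes are protein complexes of the cytosol that a sensor starts to build when it meets a microbial molecule or a sign of damage. The adaptor, whose protein is called ASC, bridges the sensor to the Casp1 protease, which matures interleukin cytokines and cuts the pore protein Gsdmd, so that the cell can lyse. Macrophages are known to need a first signal, often through a Toll-like receptor, that raises the amount of the sensor and the cytokine precursors before a further signal triggers assembly.

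Macrophages were drawn into the peritoneum with thioglycollate, an irritant broth, and cells that adhered overnight were used. The mice were of the inbred strains C57BL6/J and BALBc/J. Cells received 100 ng/ml Kdo2-lipid A (KLA), a defined minimal form of lipopolysaccharide that activates Toll-like receptor 4, for 1 hr and in RNA-Seq also for 4 hr, or no treatment. RNA-Seq measured polyadenylated RNA (6 libraries), GRO-Seq measured RNA still being made by the polymerase (4 libraries), and ChIP-Seq measured binding of PU.1, C/EBPa and p65, a subunit of NF-kB, as well as the histone marks H3K4me2 and H3K27Ac (20 lists). The RNA-Seq groups were therefore C57BL6/J and BALBc/J cells after KLA for 1 hr, after KLA for 4 hr and without treatment, with 1 library in each group. GRO-Seq and every ChIP but p65 compared KLA for 1 hr with no treatment in both strains, again with 1 library in each group. Only p65 had 2 libraries in each strain, all after KLA for 1 hr. The labels name no single animals and do not say whether animals were pooled, so every p-value reflects nothing but the scatter among these libraries, and that scatter may be technical. Per the labels, PU.1 and C/EBPa chromatin was fixed with formaldehyde, and fixation with DSG followed by formaldehyde is given as the other method without naming its ChIPs. H3K4me2 lists were called against MNase input, per the file headers.

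The depth of RNA-Seq libraries was 17.0 to 20.3 M tags (M, mega), that of GRO-Seq libraries 39.4 to 48.3 M and that of ChIP-Seq libraries 7.10 to 14.4 M. Exons of the genes used held 7.39 to 9.83% of the GRO-Seq tags. Of 9 macrophage markers, 8 were in the table, none was at 0 in any RNA-Seq library, and their summed level was 76034 to 102413 tags per 10 M. The 8 neutrophil markers in the table summed to 86.3 to 344 tags per 10 M and the 7 T and NK cell markers to 3.53 to 236, with the high end at 4 hr of KLA and carried by Lck, while Cd3e stayed at or under 0.54. Marker lists of B cells, mast cells, eosinophils and dendritic cells each summed to at most 150.1 tags per 10 M. The 8 mesothelial and fibroblast markers summed to 1179 to 2331 tags per 10 M in C57BL6/J cells and 1995 to 3077 in BALBc/J cells. In bulk RNA of this kind, fewer cells of a type and less RNA per cell cannot be told apart. The median of all genes tested lay at -0.21 (RNA-Seq, 1 hr), -0.47 (RNA-Seq, 4 hr) and -0.34 (GRO-Seq, 1 hr) on the log2 scale, and changes of single genes are read beside it.

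Promoter sequences are shown for the 4 genes that passed a KLA test and carried a factor peak within 1 kb of the start, so that the binding measured at those starts can be read beside their bases. They are RefSeq sequences of build GRCm38.p6, each of 300 bases, read 5′ to 3′ on the gene's strand and covering 250 bases before the start and 50 after it. They lie at chr11:59542436-59542735 on the plus strand (Nlrp3), chr9:5308610-5308909 on the plus strand (Casp4), chr9:5298267-5298566 on the plus strand (Casp1) and chr13:100247287-100247586 on the minus strand (Naip5). Capitals mark matches to the NF-kB consensus.
Nlrp3: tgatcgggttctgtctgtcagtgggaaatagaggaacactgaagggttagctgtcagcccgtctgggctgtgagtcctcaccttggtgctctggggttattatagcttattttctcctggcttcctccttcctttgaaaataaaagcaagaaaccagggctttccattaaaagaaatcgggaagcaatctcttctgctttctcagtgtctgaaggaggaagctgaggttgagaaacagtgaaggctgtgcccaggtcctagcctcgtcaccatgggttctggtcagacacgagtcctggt
Casp4: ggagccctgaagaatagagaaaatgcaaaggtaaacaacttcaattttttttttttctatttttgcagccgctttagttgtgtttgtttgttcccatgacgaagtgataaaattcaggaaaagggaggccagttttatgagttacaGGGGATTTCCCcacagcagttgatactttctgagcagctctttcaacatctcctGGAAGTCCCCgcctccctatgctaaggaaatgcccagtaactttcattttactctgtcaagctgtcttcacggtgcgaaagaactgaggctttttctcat
Casp1: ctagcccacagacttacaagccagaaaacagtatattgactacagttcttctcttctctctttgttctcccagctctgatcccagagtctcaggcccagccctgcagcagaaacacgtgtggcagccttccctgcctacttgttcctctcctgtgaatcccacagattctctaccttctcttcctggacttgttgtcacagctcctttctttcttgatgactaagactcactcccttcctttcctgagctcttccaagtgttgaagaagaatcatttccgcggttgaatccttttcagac
Naip5: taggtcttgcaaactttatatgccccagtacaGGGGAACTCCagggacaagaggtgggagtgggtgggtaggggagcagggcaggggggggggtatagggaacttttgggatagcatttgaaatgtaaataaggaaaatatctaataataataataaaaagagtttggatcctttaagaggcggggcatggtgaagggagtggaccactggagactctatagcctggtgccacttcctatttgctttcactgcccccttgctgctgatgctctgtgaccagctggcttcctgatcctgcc
Both strands were searched for GAGGAAGT (PU.1), TTGCNNAA (C/EBP), TGANTCA (AP-1) and the NF-kB consensus. Over 32851 promoters of this length, 3.20% held the first, 10.8% the second, 7.81% the third and 8.46% the NF-kB consensus. Casp4 held 4 NF-kB matches, of which 3 overlap and begin 104 and 103 bases before the start, and the other begins 50 bases before it. The bases from 103 before the start match on both strands and count once for each, so the 4 matches are not 4 separate sites. Naip5 held 1 NF-kB match beginning 218 bases before the start. Nlrp3 and Casp1 held none of the 4 motifs in this window. A match is a description of the letters and does not show that a factor sits there.

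Nlrp3 and Casp4 rose after 1 hr of KLA in RNA-Seq, and Casp1 joined them at 4 hr. None of the 8 genes was called lower than without treatment at either time, whereas Naip5 fell between 1 hr and 4 hr. A gene was called when limma gave a Benjamini-Hochberg adjusted p under 0.05 over the 10692 genes tested and the fitted change reached 1 on the scale of log2(tags per 10 M + 10). At 1 hr, 2 of the 8 genes were called higher, against 1.82% of all genes, and 0 lower, against 1.43%. At 4 hr, 3 of 8 were called higher, against 8.10%, and 0 lower, against 21.3%. The median change of the 8 genes was 0.19 at 1 hr and -0.21 at 4 hr.

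**Figure D1:**
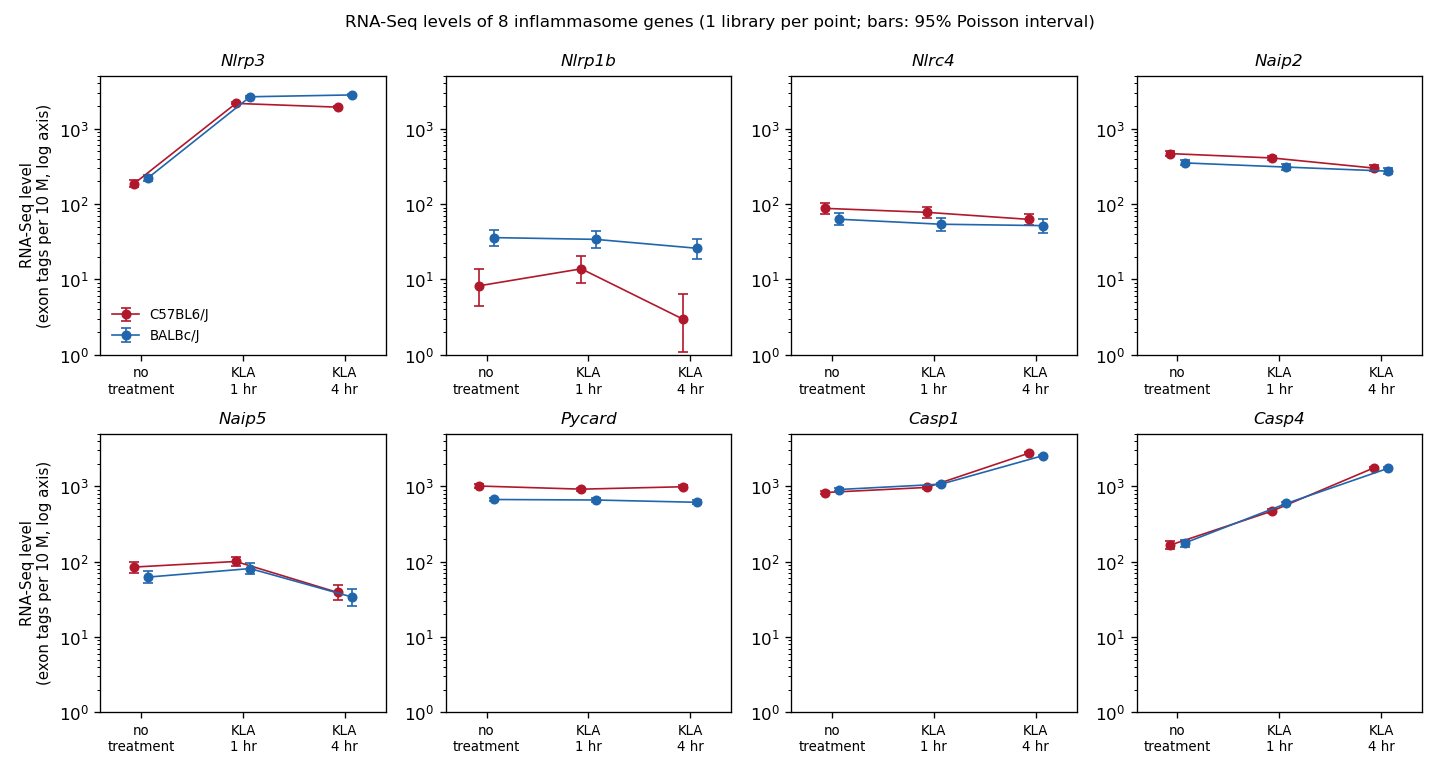
RNA-Seq level of each gene (exon tags per 10 M, log axis) without treatment and after KLA for 1 and 4 hr in C57BL6/J (red) and BALBc/J (blue), 1 library per point, with 95% Poisson intervals that cover counting error only. Nlrp3 is high at both KLA times, Casp4 climbs at each time, Casp1 is high at 4 hr, and Nlrp1b is lower in C57BL6/J at every point.

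Nlrp3, the sensor of potassium loss and many other disturbances, lies at chr11:59356187-59380458 on the plus strand (mm9). Its RNA-Seq level was 186 tags per 10 M without treatment, 2165 after KLA for 1 hr and 1930 after 4 hr in C57BL6/J cells. In BALBc/J cells it was 223, 2652 and 2805 tags per 10 M at the same points. All 4 KLA libraries lay far above both untreated ones, with no overlap. The fitted rise was 3.49 ± 0.17 at 1 hr (log2, SE; limma adjusted p = 1.73e-05) and 3.45 ± 0.17 at 4 hr (limma adjusted p = 4.85e-06). The folds of the levels were 11.6 in C57BL6/J and 11.9 in BALBc/J at 1 hr, and 10.4 and 12.6 at 4 hr. Between 1 hr and 4 hr the fitted difference was -0.04, so that the gain measured at 1 hr was already as large as that at 4 hr.

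Nlrp1b senses the protease of anthrax lethal toxin and lies at chr11:70966603-71014958 on the minus strand (mm9). It was weakly expressed, at 8.25, 13.8 and 2.96 tags per 10 M in C57BL6/J cells and 35.9, 34.0 and 25.9 in BALBc/J cells (no treatment, 1 hr and 4 hr). Those C57BL6/J levels rest on only 14, 26 and 6 tags. The fitted KLA change was 0.16 at 1 hr and -0.42 at 4 hr, neither of them called.

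Nlrc4 is the platform that NAIP proteins switch on, and its gene lies at chr17:74825634-74858448 on the minus strand (mm9). Its RNA-Seq level was 87.8, 77.7 and 62.7 tags per 10 M in C57BL6/J cells and 62.9, 54.0 and 51.8 in BALBc/J cells (no treatment, 1 hr and 4 hr). The levels of the strains overlapped slightly, and the fitted changes of -0.17 at 1 hr and -0.33 at 4 hr were not called.

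Naip2, whose protein detects the inner rod of bacterial type III secretion systems, and Naip5, whose protein detects flagellin, lie side by side on the minus strand of chromosome 13 at chr13:100914017-100972047 and chr13:100981694-101017291 (mm9). A stretch of 9647 bp separates them. Naip2 had 467, 409 and 300.0 tags per 10 M in C57BL6/J cells and 352, 309 and 273 in BALBc/J cells (no treatment, 1 hr and 4 hr). Naip5 had 84.8, 100.6 and 39.0 tags per 10 M in C57BL6/J cells and 62.4, 81.0 and 33.9 in BALBc/J cells. Both 4 hr libraries of Naip5 lay below all 4 others, and both 4 hr libraries of Naip2 lay below its other libraries of the same strain. From 1 hr to 4 hr Naip5 fell by 1.11 ± 0.19 on the log2 scale (limma adjusted p = 0.00243). Against no treatment its difference at 4 hr was -0.84 ± 0.19 (limma adjusted p = 0.00685), and that of Naip2 was -0.49 ± 0.18 (limma adjusted p = 0.0496), both under the size threshold. The median of all genes tested at 4 hr was -0.47, close to the Naip2 value. With libraries centred on the median gene the differences were -0.41 for Naip5 (limma adjusted p = 0.142) and -0.06 for Naip2 (limma adjusted p = 0.84), and neither passed. Naip genes are near copies of each other, so reads may be shared among them, and with libraries centred on the median gene the Naip5 value of -0.90 for 4 hr against 1 hr no longer reached the size threshold.

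Pycard encodes the adaptor ASC and lies at chr7:135134886-135137381 on the minus strand (mm9). It had 1008, 916 and 986 tags per 10 M in C57BL6/J cells and 668, 658 and 613 in BALBc/J cells (no treatment, 1 hr and 4 hr). The levels within a strain stayed close together at all 3 points, and the fitted change was -0.08 at 1 hr and again -0.08 at 4 hr. All 3 C57BL6/J libraries lay above all 3 BALBc/J libraries.

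Casp1 and Casp4 follow each other on the plus strand of chromosome 9, at chr9:5298516-5307281 and chr9:5308859-5336791 (mm9), with 1578 bp between them. The product of mouse Casp4, long known as caspase-11, binds lipopolysaccharide in the cytosol and cuts Gsdmd. Casp1 had 827, 966 and 2745 tags per 10 M in C57BL6/J cells and 906, 1066 and 2549 in BALBc/J cells (no treatment, 1 hr and 4 hr). Casp4 had 166, 470 and 1759 tags per 10 M in C57BL6/J cells and 176, 592 and 1738 in BALBc/J cells. For Casp4 the 3 points did not overlap between treatments, while for Casp1 only the 4 hr libraries stood well apart. Casp4 rose by 1.57 ± 0.18 at 1 hr (log2, SE; limma adjusted p = 0.00231) and by 3.28 ± 0.18 at 4 hr (limma adjusted p = 6.98e-06). The fold of its level at 4 hr was 10.6 in C57BL6/J and 9.86 in BALBc/J, against 2.83 and 3.36 at 1 hr. Casp1 was 0.23 above no treatment at 1 hr, which was not called, and rose by 1.60 ± 0.17 at 4 hr (limma adjusted p = 0.000169), with folds of 3.32 in C57BL6/J and 2.81 in BALBc/J.

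The members that moved did so on different schedules. From 1 hr to 4 hr, Casp4 rose by 1.71 (log2; limma adjusted p = 0.00022) and Casp1 by 1.37 (limma adjusted p = 0.000461), while Nlrp3 stayed level and Naip5 fell. Thus 2 of 8 genes were called higher at 4 hr than at 1 hr, against 8.67% of all genes, and 1 lower, against 13.5%. Per kb of transcript, the untreated C57BL6/J order was Casp1 (547 tags per 10 M per kb), Pycard (472), Casp4 (116), Naip2 (98.3), Nlrp3 (46.3), Nlrc4 (22.9), Naip5 (16.0) and Nlrp1b (2.00). In untreated BALBc/J cells the same order held, at 599, 313, 123, 74.0, 55.5, 16.4, 11.8 and 8.69 tags per 10 M per kb. No gene's untreated values in the strains overlapped with those of its neighbour in this order, although Nlrc4 in BALBc/J (16.4) and Naip5 in C57BL6/J (16.0) nearly met. At 4 hr Casp1 led at 1814 in C57BL6/J and 1685 in BALBc/J, followed by Casp4 at 1229 and 1214, while Nlrp3 (480 and 698) and Pycard (462 and 287) came next, near each other in C57BL6/J only.

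GRO-Seq at 1 hr gave the same pair of rising genes, Nlrp3 and Casp4, and Casp1 transcription was close to its untreated level. Of the 8 genes, 7 reached the level needed for testing. KLA called 2 of 7 higher, against 4.31% of the 9110 genes tested, and 0 lower, against 15.5%. The median change of the 7 was -0.26. Because this assay leaves 1 residual degree of freedom, its p-values borrow their error from all genes together. GRO-Seq levels here count exon tags alone, a small part of all nascent RNA.

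Nlrp3 had 1310 GRO-Seq tags per 10 M after KLA and 124 without treatment in C57BL6/J cells, and 963 after KLA and 67.7 without treatment in BALBc/J cells. The KLA libraries lay far above the untreated ones, and the fitted rise was 3.47 ± 0.30 (log2, SE; limma adjusted p = 3.10e-28). By exon tags Nlrp3 then ranked 21st of all genes in C57BL6/J and 50th in BALBc/J. Casp4 had 116 tags per 10 M after KLA and 31.5 without treatment in C57BL6/J cells, and 104 and 29.0 in BALBc/J cells. It rose by 1.57 ± 0.36 (limma adjusted p = 0.000125), with folds of 3.68 in C57BL6/J and 3.57 in BALBc/J. Casp1 had 45.9 tags per 10 M after KLA and 52.8 without treatment in C57BL6/J cells, and 61.1 and 59.6 in BALBc/J cells, so that its treated and untreated levels overlapped.

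The remaining sensors and the adaptor had GRO-Seq levels below those of untreated cells in both strains. Naip5 had 17.3 tags per 10 M after KLA and 46.5 without treatment in C57BL6/J cells, and 8.16 and 23.0 in BALBc/J cells. The fitted difference of Naip5 was -0.95. Only its untreated libraries reached the minimum level for testing. A lower level after KLA was thus favoured once Naip5 entered the test, and its p-value is therefore not used. Pycard had 69.7 tags per 10 M after KLA and 145 without treatment in C57BL6/J cells, and 129 and 218 in BALBc/J cells, a fitted difference of -0.84 (limma adjusted p = 0.043). Pycard passed the p threshold but not the size threshold. The RNA-Seq levels of Naip5 and Pycard at 1 hr differed from no treatment by 0.28 and -0.08. The lower nascent level of Pycard at 1 hr thus stood beside an RNA level that was not called. For Naip5 the RNA level was not called either, and its lower nascent level has no usable test. Naip2 had 26.4 tags per 10 M after KLA and 60.2 without treatment in C57BL6/J cells, and 33.9 and 51.7 in BALBc/J cells (-0.72, limma adjusted p = 0.117). Nlrc4 had 32.9 after KLA and 44.7 without treatment in C57BL6/J cells and 32.4 and 37.7 in BALBc/J cells (-0.26). Neither Naip2 nor Nlrc4 passed the test, and Nlrc4 lies above the median of all genes. Nlrp1b was too low to test, at 3.60 tags per 10 M after KLA and 14.5 without treatment in C57BL6/J cells, and 4.94 and 11.2 in BALBc/J cells.

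**Figure D2:**
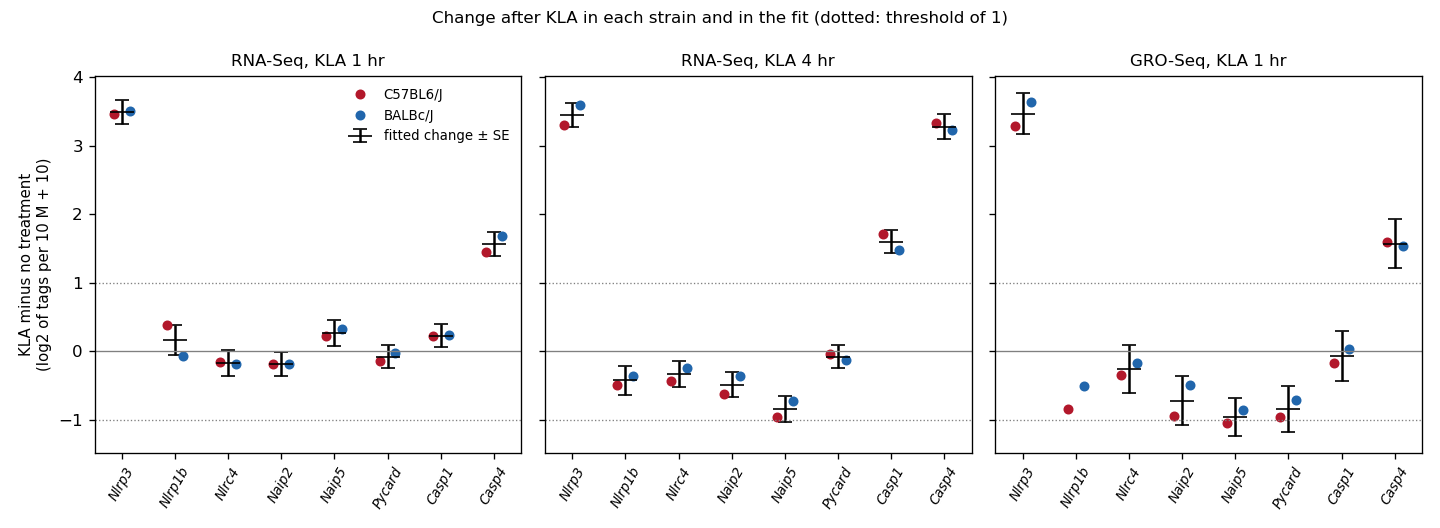
Change of each gene after KLA (KLA minus no treatment, log2 of tags per 10 M + 10) in RNA-Seq at 1 and 4 hr and in GRO-Seq at 1 hr. Coloured points are the C57BL6/J (red) and BALBc/J (blue) differences, black dashes with bars the fitted change ± SE, and dotted lines the threshold of 1. Nlrp3 and Casp4 lie above the threshold in each panel and Casp1 only in the 4 hr panel. In GRO-Seq the fitted changes of the other genes lie at or below 0.

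The strains responded to KLA alike in direction for the genes that rose. The response of Nlrp3 in C57BL6/J minus that in BALBc/J was -0.04 at 1 hr and -0.29 at 4 hr, and that of Casp4 was -0.25 and 0.10 (log2). For Casp1 at 4 hr it was 0.24. Among all genes tested, 10.4% had a smaller difference than Nlrp3 at 1 hr and 45.8% at 4 hr. For Casp4 these shares were 56.2% and 16.2%, and for Casp1 at 4 hr the share was 38.1%. In GRO-Seq at 1 hr the difference was -0.35 for Nlrp3 (38.3%) and 0.06 for Casp4 (5.58%). This design leaves no residual for such a difference, so it has no p-value.

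Between strains, Nlrp1b had the largest RNA-Seq difference of the 8 genes, with lower levels in C57BL6/J. In untreated cells it had 8.25 tags per 10 M in C57BL6/J and 35.9 in BALBc/J, and the BALBc/J level was 4.35, 2.46 and 8.74 times the C57BL6/J level without treatment, at 1 hr and at 4 hr. The fitted difference was -1.23 ± 0.18 (log2, SE). Nlrp1b reached the minimum of 20 tags per 10 M in BALBc/J libraries alone, so that it had to differ once it entered the test, and its call and p-value are therefore not used. Of the other 7 genes, 0 were called higher in C57BL6/J, against 1.19% of all genes, and 0 lower, against 2.52%. At an unadjusted p under 0.05 by limma, 3 of these 7 passed (Nlrp3, Nlrc4 and Pycard), beside 2186 of 10692 genes. In GRO-Seq the levels of Nlrp1b overlapped between the strains, at 3.60 and 14.5 tags per 10 M in C57BL6/J cells and 4.94 and 11.2 in BALBc/J cells (KLA and no treatment).

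The neighbouring paralog Nlrp1a ran the other way, at 21.2, 19.7 and 3.95 tags per 10 M in C57BL6/J cells and 2.08, 1.62 and 1.73 in BALBc/J cells (no treatment, 1 hr and 4 hr). The levels of both genes summed to 29.4, 33.5 and 6.91 in C57BL6/J cells and 38.0, 35.6 and 27.6 in BALBc/J cells. Without treatment and at 1 hr the strains' sums therefore lay much closer together than Nlrp1b alone, and at 4 hr they did not. Reads of both strains were aligned to mm9, the genome of a C57BL/6J mouse, and the part of read sharing and of strain sequence differences in this contrast was not tested.

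Pycard was 0.58 ± 0.14 higher in C57BL6/J on the log2 scale (limma adjusted p = 0.0412), under the size threshold, with levels 1.51, 1.39 and 1.61 times those of BALBc/J without treatment, at 1 hr and at 4 hr. Its GRO-Seq levels had the opposite order, at 69.7 and 145 tags per 10 M in C57BL6/J cells and 129 and 218 in BALBc/J cells (KLA and no treatment). Nlrp3 also differed in order between the assays. Its RNA-Seq difference was -0.36 (limma adjusted p = 0.192), and its GRO-Seq difference was 0.62. The RNA-Seq differences of Nlrc4 (0.37), Naip2 (0.31), Naip5 (0.28), Casp1 (-0.06) and Casp4 (-0.13) did not pass the test. In GRO-Seq, 0 of 7 genes were called between strains, against 0.911% of all genes. At an unadjusted p under 0.05, 3 of the 7 passed (Nlrp3 at 0.62, Naip5 at 0.68 and Pycard at -0.68), beside 672 of 9110 genes. The limma adjusted p of these 3 genes in the main fit was 0.658, 0.434 and 0.661. With libraries centred on the median gene it was 7.57e-05, 8.59e-06 and 0.044, and the size threshold was not reached. The share of all genes passing the adjusted threshold in the centred run was not counted, so these values have no background beside them.

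Of the 8 mesothelial and fibroblast markers, 2 (Col1a1 and Upk3b) were called lower in C57BL6/J in RNA-Seq, against 2.52% of all genes. All 8 lay lower in C57BL6/J, from -1.38 (Upk3b) to -0.44 (Col3a1), with a median of -0.81 beside -0.08 for all genes. Krt19 and Msln among them reached the minimum level in BALBc/J libraries alone. Of the 8 macrophage markers tested, 1 (Mertk, at 1.33 on the log2 scale) was called higher, against 1.19%, and 0 lower. The other macrophage markers went both ways, from -0.76 (Cd14) to 0.79 (Fcgr1), and the median of the list was 0.54. The part of such differences between the cell preparations in the strain values of Nlrp1b and Pycard was not tested.

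**Figure D3:**
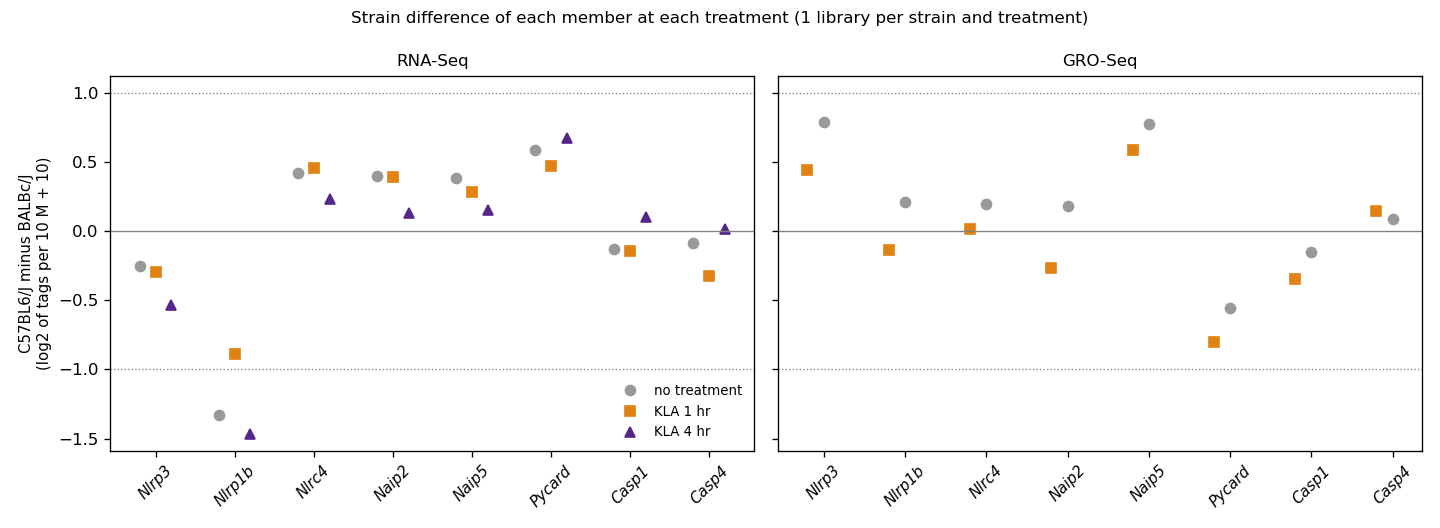
Difference between the strains (C57BL6/J minus BALBc/J, log2 of tags per 10 M + 10) of each gene in RNA-Seq and GRO-Seq, 1 point per treatment and 1 library per strain and treatment; dotted lines mark 1 and -1. Nlrp1b is below 0 at all 3 RNA-Seq points, Pycard lies above 0 in RNA-Seq and below 0 in GRO-Seq, and Nlrp3 the other way round.

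Binding was compared at peaks whose centre lay within 50 kb of a start. PU.1 is the lineage factor of macrophages, C/EBPa a partner of it in myeloid cells, and p65 the NF-kB subunit that enters the nucleus after Toll-like receptor signals. The normalized tags of PU.1 and C/EBPa lists are a fixed multiple of the caller's score, 1.38 to 2.00 over the lists, which exceeds the factor to 10 M tags of the same libraries (1.08 to 1.41). Their scale between lists is therefore not fully known, and they are given side by side. Near the 8 genes there were 66 PU.1, 47 C/EBPa and 54 p65 loci, of which 30, 20 and 35 were listed in all 4 libraries of the factor. For PU.1, 30 of 66 loci listed in all 4 libraries compares with 41.6% over all loci, for C/EBPa 20 of 47 with 32.0% and for p65 35 of 54 with 46%. Within 1 kb of the start, a PU.1 locus of all 4 lists was present at 6 of 8 genes (31.7% of all genes), a C/EBPa locus at 4 of 8 (17.5%) and a p65 locus at 5 of 8 (19.2%). No matching for expression level was made.

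**Figure D4:**
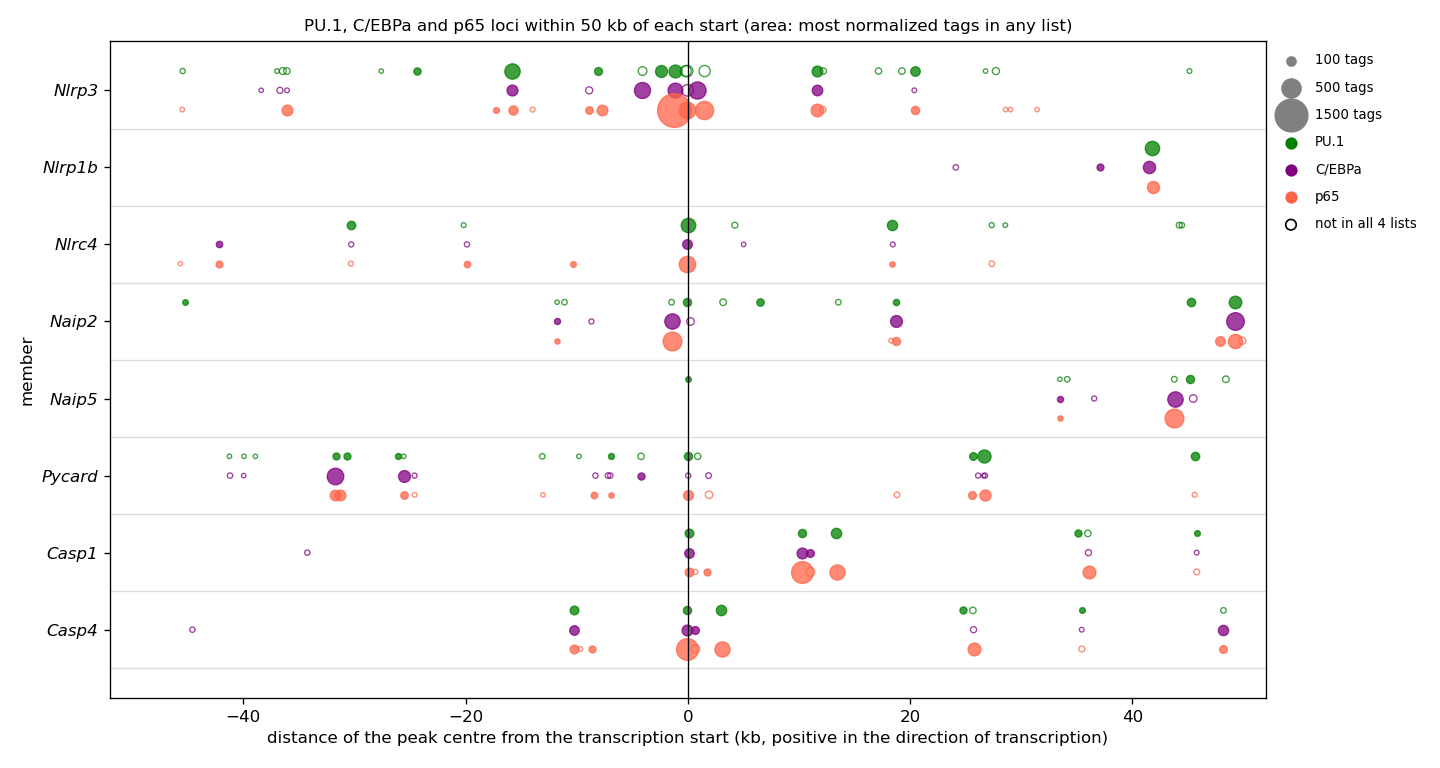
PU.1 (green), C/EBPa (purple) and p65 (red) loci by distance of the peak centre from each start (kb, positive in the direction of transcription). The area of a circle shows the most normalized tags in any list, and open circles are loci not listed in all 4 libraries. The largest circle is the p65 locus just upstream of Nlrp3, and Nlrp1b has no locus within 20 kb of its start.

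Nlrp3 had the strongest p65 binding of the set. A p65 locus centred 1232 bp before its start (chr11:59354848-59355062, mm9) had 1256 and 1626 normalized tags in the C57BL6/J replicates and 1428 and 1452 in the BALBc/J replicates. The mean there was above that of 99.98% of the p65 loci listed in all 4 libraries. The replicates of the strains overlapped, and limma found no strain difference (adjusted p = 0.823). A further p65 locus lay 59 bp before the start, with 374 and 386 tags in C57BL6/J and 297 and 249 in BALBc/J, in the window where the printed promoter holds no NF-kB match.

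PU.1 and C/EBPa were also listed beside the strong Nlrp3 site. PU.1 1126 bp before the start had 224 tags after KLA and 183 without treatment in C57BL6/J, and 225 and 207 in BALBc/J. C/EBPa 1196 bp before the start had 275 after KLA and 174 without treatment in C57BL6/J, and 301 and 149 in BALBc/J. C/EBPa thus had more tags there after KLA in both strains, whereas 850 bp after the start it had fewer, at 288 after KLA and 349 without treatment in C57BL6/J and 301 and 412 in BALBc/J. At 16 bp before the start C/EBPa was listed without treatment only, at 176 tags in C57BL6/J and 146 in BALBc/J. The strongest PU.1 locus of Nlrp3 lay 15778 bp before the start, at 292 tags after KLA and 310 without treatment in C57BL6/J and 303 and 323 in BALBc/J. At the start itself PU.1 was listed 187 bp before it in the C57BL6/J KLA library (158 tags) and 57 bp before it in the other 3 libraries (170 in untreated C57BL6/J cells, and 164 after KLA and 146 without treatment in BALBc/J), 130 bp apart and so not joined at 100 bp.

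Casp4 also had a strong p65 locus at its start, centred 80 bp before it (chr9:5308673-5308883, mm9), with 490 and 668 tags in C57BL6/J and 454 and 559 in BALBc/J. It stood above 97.82% of p65 loci, and its replicates overlapped between strains. All 4 NF-kB matches of the printed Casp4 promoter lie within the width of this locus, measured from the start. Another p65 locus, 704 bp after the start, was listed in 1 C57BL6/J replicate only (87.7 tags). Around 3 kb after the start, p65 (317 and 269 tags in C57BL6/J, 297 and 181 in BALBc/J) and PU.1 were both listed. That PU.1 locus was the strongest of Casp4, at 140 tags after KLA and 74.7 without treatment in C57BL6/J and 135 and 91.9 in BALBc/J. At the start PU.1 had 70.9 after KLA and 60.8 without treatment in C57BL6/J and 81.0 and 46.0 in BALBc/J. C/EBPa there had 134 after KLA and 104 without treatment in C57BL6/J and 132 and 156 in BALBc/J, so the strains differed in direction. A C/EBPa locus 641 bp after the start had 72.4 and 66.1 tags in C57BL6/J and 72.9 and 63.1 in BALBc/J (KLA and no treatment).

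Casp1, which lies just before Casp4, had weaker binding at its own start. The p65 locus 110 bp after it had 94.6 and 70.3 tags in C57BL6/J and 83.0 and 42.7 in BALBc/J. PU.1 there had 82.5 after KLA and 95.4 without treatment in C57BL6/J and 74.6 and 78.1 in BALBc/J, and C/EBPa had 107 and 116 in C57BL6/J and 109 and 114 in BALBc/J. A p65 locus 682 bp after the start was listed in both BALBc/J replicates alone, at 17.0 and 14.5 tags. The strongest loci within 50 kb of the Casp1 start for all 3 factors were those of Casp4, 10275, 13363 and 10263 bp away for C/EBPa, PU.1 and p65, which a distance rule gives to both genes.

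Nlrc4 had its strongest locus of each factor at its start. PU.1 at 20 bp before it had 282 tags after KLA and 225 without treatment in C57BL6/J and 289 and 245 in BALBc/J. C/EBPa had 103 and 94.2 in C57BL6/J and 119 and 100.0 in BALBc/J (KLA and no treatment), and p65 had 280 and 375 in the C57BL6/J replicates and 273 and 277 in the BALBc/J replicates. A gene whose RNA was not called after KLA thus carried p65 tags at its start in the range of those at the Nlrp3 start.

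The Naip genes differed from each other in binding. Naip2 had PU.1 at its start (75.9 tags after KLA and 76.1 without treatment in C57BL6/J, 77.8 and 81.2 in BALBc/J), and C/EBPa 242 bp after it without treatment only (54.1 in C57BL6/J and 66.6 in BALBc/J). Upstream of Naip2, p65 at 1467 bp had 431 and 495 tags in C57BL6/J and 385 and 484 in BALBc/J, and C/EBPa at 1427 bp had 305 after KLA and 283 without treatment in C57BL6/J and 326 and 282 in BALBc/J. The strongest PU.1 and C/EBPa loci of Naip2 lay about 49 kb after the start. PU.1 had 168 after KLA and 212 without treatment there in C57BL6/J and 167 and 215 in BALBc/J, and C/EBPa had 341 and 403 in C57BL6/J and 371 and 433 in BALBc/J, so all had fewer tags after KLA. Naip5 had only a weak PU.1 locus near its start, at 18.1 after KLA and 27.7 without treatment in C57BL6/J and 23.8 and 30.6 in BALBc/J, with no p65 or C/EBPa locus within 1 kb although the printed promoter holds an NF-kB match. Its strongest PU.1 locus within 50 kb was that at the Naip2 start, and its strongest p65 and C/EBPa loci were those 1467 and 1427 bp upstream of Naip2.

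Pycard had modest binding at its start. PU.1 had 67.6 tags after KLA and 59.5 without treatment in C57BL6/J and 79.4 and 59.8 in BALBc/J. C/EBPa was listed after KLA only, at 15.3 in C57BL6/J and 23.0 in BALBc/J. The p65 locus had 125 and 121 tags in the C57BL6/J replicates and 75.0 and 69.3 in the BALBc/J replicates. These tags are not centred between libraries. With each library centred on its median locus, C57BL6/J minus BALBc/J was 0.41 ± 0.30 (log2, SE; limma adjusted p = 0.837) and was not called. A PU.1 locus 893 bp after the start was listed in 3 libraries, at 34.6 after KLA and 41.5 without treatment in C57BL6/J and 26.0 without treatment in BALBc/J. Its strongest loci lay farther away, for PU.1 26693 bp after the start (233 after KLA and 209 without treatment in C57BL6/J, 230.2 and 233 in BALBc/J) and for C/EBPa 31754 bp before it (297 and 331 in C57BL6/J, 380.1 and 349 in BALBc/J). Nlrp1b had no locus of any factor within 20 kb. Its strongest PU.1 locus, 41790 bp after the start, had 284 and 270 tags in C57BL6/J and 187 and 195 in BALBc/J (KLA and no treatment), higher in C57BL6/J, while C/EBPa 41506 bp after the start had 122 and 126 in C57BL6/J and 167 and 202 in BALBc/J, higher in BALBc/J. The p65 locus there had 197 and 169 tags in C57BL6/J and 189 and 141 in BALBc/J.

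Of the 35 p65 loci near the 8 genes that were listed in all 4 libraries, 0 were called between strains by limma and 0 had an unadjusted p under 0.05. Over all 36541 loci 0.878% were called and 3165 were at an unadjusted p under 0.05, and at such a share a count of 0 says nothing particular about these 35. Of these 35, 18 (51.4%) coincided with a PU.1 peak of untreated cells, against 47.2% of all p65 loci, and 17 (48.6%) with a C/EBPa peak, against 47.7%. PU.1 loci listed after KLA in both strains and not without treatment numbered 4 of 66, against 5.12% of all PU.1 loci, and the converse 2 of 66, against 4.10%. Among the KLA-only loci was one 1514 bp after the Nlrp3 start, at 163 tags in C57BL6/J and 154 in BALBc/J. For C/EBPa the KLA-only loci numbered 4 of 47, against 8.73%, and the no-treatment-only loci 3 of 47, against 5.25%. PU.1 loci of C57BL6/J alone numbered 0 of 66, against 2.86%, and of BALBc/J alone 0 of 66, against 3.85%. For C/EBPa the same counts were 2 of 47, against 1.92%, and 0 of 47, against 3.92%. These shares rest on 1 library per group and carry no test, and a peak not listed may still hold tags below the caller's threshold.

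Histone marks were read as regions over each start. H3K4me2, a mark of promoters and enhancers, covered the starts of all genes but Nlrp1b and Naip5 in all 4 libraries. Its ratio of KLA to no treatment there lay between 0.76 and 1.22. H3K27Ac, which marks active ones, varied more. Over the Nlrp3 start it had 2535 tags after KLA and 1679 without treatment in C57BL6/J and 1428 and 1126 in BALBc/J, ratios of 1.51 and 1.27 beside a median of 0.733 and 0.779 over all regions. The Casp4 region had 243 after KLA and 186 without treatment in C57BL6/J and 219 and 81.1 in BALBc/J, ratios of 1.31 and 2.70. Over their starts, both genes that rose at 1 hr thus had more H3K27Ac tags after KLA in each strain. Elsewhere within 50 kb of the Nlrp3 start the H3K27Ac regions went both ways, some with fewer tags after KLA in both strains.

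Over the Pycard start H3K27Ac had 57.2 tags after KLA and 260 without treatment in C57BL6/J and 123 and 223 in BALBc/J, ratios of 0.22 and 0.551. The Casp1 region had 211 after KLA and 305 without treatment in C57BL6/J and 144 and 187 in BALBc/J, and that of Naip2 299 and 371 in C57BL6/J and 209 and 310 in BALBc/J, close to the median ratio. Nlrc4 had 68.9 after KLA and 45.7 without treatment in C57BL6/J but 42.3 and 61.1 in BALBc/J, so that the strains differed in direction. Among H3K27Ac loci near the 8 genes listed in both libraries of a strain, 1 of 17 in C57BL6/J was at least 2-fold higher after KLA, against 10.8% of all loci, and 5 of 17 at least 2-fold lower, against 31.8%. In BALBc/J 3 of 18 were at least 2-fold higher, against 11.0%, and 2 of 18 at least 2-fold lower, against 28.6%. With 1 library per group these differences have no replicate check.

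Other genes of the pathway were followed in 5 lists. Their counts stand beside the share of all genes called, which was 1.82% higher and 1.43% lower at 1 hr and 8.10% higher and 21.3% lower at 4 hr. Of 6 genes of cytokines, the pore and cell lysis, 2 were called higher at 1 hr (1.82% of all genes) and 4 at 4 hr (8.10%), and 0 lower (21.3% at 4 hr), with a median of 1.45 at 4 hr beside -0.47 for all genes. The other members of this list, Casp8 and Ninj1, named here after their values were seen, were at 0.46 and -0.65 at 4 hr and were not called, although Ninj1 had a limma adjusted p of 0.00726. Il1b, the main Casp1 substrate, had 224, 10676 and 38263 tags per 10 M in C57BL6/J cells and 247, 16975 and 28580 in BALBc/J cells (no treatment, 1 hr and 4 hr). It rose by 5.78 ± 0.25 at 1 hr and 7.07 ± 0.25 at 4 hr (limma adjusted p = 8.56e-06 and 1.05e-06). Il1a, a cytokine of the same family, rose by 5.13 and 5.96 at these times, and Il18, the other cytokine Casp1 matures, rose by 1.66 and Gsdmd by 1.23 at 4 hr (limma adjusted p = 0.000838 and 0.000789). Gsdmd levels were 547, 482 and 1250 tags per 10 M in C57BL6/J cells and 463, 503 and 1143 in BALBc/J cells, high at 4 hr as those of Casp1 were.

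**Figure D5:**
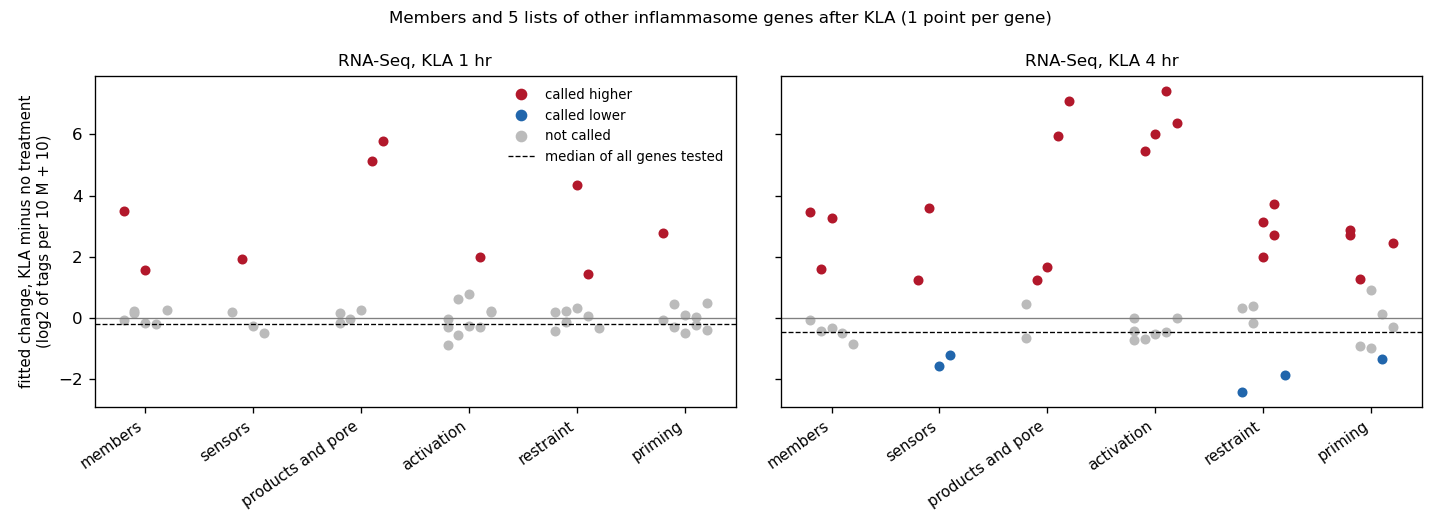
Fitted change after KLA (KLA minus no treatment, log2 of tags per 10 M + 10) in RNA-Seq at 1 hr and 4 hr of the 8 members and of 5 lists of other inflammasome genes, 1 point per gene, red where called higher, blue where called lower and grey where not called. The dashed line is the median of all genes tested. At 1 hr no gene of any list was called lower, and at 4 hr lower calls appear among sensors, restraint and priming genes.

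Of 8 further sensors, 4 were high enough to test, and 1 was called higher at 1 hr (1.82% of all genes), then 2 higher (8.10%) and 2 lower (21.3%) at 4 hr, with a median of 0.02. Mefv, which encodes the sensor pyrin, rose by 3.61 ± 0.19 at 4 hr (limma adjusted p = 5.49e-06), and Aim2, a sensor of cytosolic DNA, by 1.25 ± 0.19. Naip1, whose product senses the needle of type III secretion systems, fell by 1.57 ± 0.24, and Nlrp10 fell by 1.20 ± 0.32. Naip1 had 41.2, 26.6 and 2.96 tags per 10 M in C57BL6/J cells and 16.1, 15.7 and 1.73 in BALBc/J cells (no treatment, 1 hr and 4 hr). It reached the minimum level for testing only in C57BL6/J cells without treatment and at 1 hr. A lower level at 4 hr was thus favoured once Naip1 entered the test. Its call, included in the 2 lower, and its p-value are therefore not used.

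Of 11 genes that help activation, 1 was called higher at 1 hr (1.82% of all genes) and 4 at 4 hr (8.10%), and 0 lower (21.3% at 4 hr), with a median of 0.01 at 4 hr. The genes called at 4 hr were interferon-inducible GTPases that act on bacteria and expose their ligands, with rises of 7.42 (Gbp5), 6.36 (Gm12250), 6.01 (Gbp3) and 5.45 (Gbp2) at 4 hr. Gbp5 had 94.2, 337 and 16418 tags per 10 M in C57BL6/J cells and 124, 643 and 24716 in BALBc/J cells (no treatment, 1 hr and 4 hr). Gbp genes are close relatives, and reads may be shared among them.

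Of 10 genes that restrain the pathway, 9 were tested, with 2 called higher at 1 hr (1.82% of all genes), then 4 higher (8.10%) and 2 lower (21.3%) at 4 hr, and a median of 0.41. The share called lower was near that of all genes. Trim30a, an interferon-inducible protein, rose by 3.74 ± 0.17 at 4 hr. Tnfaip3, an enzyme that edits ubiquitin and dampens NF-kB, rose by 3.14 ± 0.19, and Il1rn, the antagonist of the interleukin receptor, by 2.71 ± 0.19. Ptpn22, a phosphatase, fell by 2.41, to 10.9 tags per 10 M in C57BL6/J and 11.5 in BALBc/J cells at 4 hr. It reached the minimum level for testing only without treatment and at 1 hr, so a lower level at 4 hr was favoured. Its call, included in the 2 lower, is therefore not used. Il1rn was also lower in C57BL6/J by strain (-1.02 ± 0.15, limma adjusted p = 0.00687), with 3187, 9124 and 26386 tags per 10 M in C57BL6/J cells and 7872, 19840.0 and 40909 in BALBc/J cells. Of 10 priming genes, 1 was called higher at 1 hr (1.82% of all genes), then 4 higher (8.10%) and 1 lower (21.3%) at 4 hr, with a median of 0.52. The lipopolysaccharide co-receptor Cd14 rose by 2.87 ± 0.20 at 4 hr, the NF-kB gene Nfkb1 by 2.72 ± 0.18 and the adaptor Myd88 by 2.46 ± 0.18, and the receptor Tlr4 fell by 1.34 ± 0.20.

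Over the 6 RNA-Seq libraries, the genes whose log2 levels were most like those of the members that passed a KLA test were named by Pearson r, as a description in which all points share libraries and treatment. For Nlrp3 they were Pvr (0.993), Ccrn4l (0.989) and Rel (0.988). For Casp4 they were Tlr2 (0.9998), Vcam1 (0.998) and Icam1 (0.997), and for Casp1 Rtp4 (0.999), Lancl2 (0.999) and Pcgf5 (0.998). For Naip5 they were Hibch (0.997), Atg4c (0.991) and Pxmp2 (0.991).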

How the data were processed

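The submitters' processing notes name Bowtie 0.12.7, HOMER and the build mm9. Expression was deposited by the authors as log2 of 1 plus exon tags per 10 M tags, per the file headers, with a random part under 1 tag that was removed by taking whole tags. Transcript length, a further deposited column, was used for levels per kb. The use of strand in counting is not given in the sources read. The tag signal of ChIP-Seq peaks was deposited by the authors per 10 M tags, per the file headers, and is listed only where a peak was called. PU.1 and C/EBPa values are a fixed multiple, per list, of the caller's score, larger than scaling to 10 M tags would give, so what they are relative to is not fully known. Per the file headers, input DNA of C57BL6/J served as background for the BALBc/J p65 lists too.

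Levels were tested in R 4.3.3 by limma 3.58.1 (lmFit, eBayes with trend) on log2(tags per 10 M + 10), for genes with 20 tags per 10 M in at least 2 libraries, with additive terms for treatment and strain. The strains act as replicates of a treatment and the treatments as replicates of a strain. RNA-Seq had 2 residual degrees of freedom. The pseudocount makes changes of low genes smaller than their ratios. For p65, limma ran on log2 tags of loci listed in all 4 libraries with centres within 100 bp, each library centred on its median locus. The fits were tested on simulated data. The 8 genes, the lists, and the tests were chosen with earlier results of these data known. Named genes of a list are up to 4 with the largest 4 hr change among those called in any contrast. Of 40 samples, 30 were used, and input DNA, CB6F1/J and NOD/ShiLtJ samples were not analysed here. Intervals cover counting error only.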

Additional observations from a re-analysis of the deposited data

Results flagged for a closer look

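The direction of the KLA difference was opposite in the strains for 2 genes, neither of which was called. In RNA-Seq at 1 hr Nlrp1b differed by 0.39 in C57BL6/J and by -0.06 in BALBc/J (KLA minus no treatment, log2). In GRO-Seq at 1 hr Casp1 differed by -0.17 in C57BL6/J and by 0.03 in BALBc/J. With 1 library per strain and treatment, the difference between the strains was not tested.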

How the results depend on the processing

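No direction of a called value reversed under any alternative run. The number of genes called moved by over 1.5 times, from the main counts of 348 (RNA-Seq, 1 hr), 3141 (4 hr), 2373 (4 hr against 1 hr), 396 (RNA-Seq strain), 1803 (GRO-Seq, 1 hr) and 83 (GRO-Seq strain). With a pseudocount of 50 they were 202, 1966, 1516, 170, 551 and 26, with 0 members by RNA-Seq strain and 1 in GRO-Seq. With no filter they were 4, 1731, 936, 0, 0 and 0, with 0 members at 1 hr in RNA-Seq, by RNA-Seq strain and in GRO-Seq. With a filter of 100 tags per 10 M, RNA-Seq strain gave 217 genes with 0 members, since Nlrp1b did not enter, GRO-Seq at 1 hr gave 726 and GRO-Seq strain 26. Leaving out 1 library gave 247 to 797 genes for RNA-Seq at 1 hr, with 797 without the C57BL6/J KLA 1 hr library, and 315 to 600 p65 loci against 321. Each member's RNA-Seq call held in every such fit, and in GRO-Seq leaving out a library leaves no residual and no test. For Pycard between strains the highest adjusted p of these limma fits was 0.387. For p65, a replicate block called 1898 loci, no centring 805 and at least 20 tags 149, each with 0 near members. Deviations of p65 replicates with the same number correlated at r = 0.647, but no label says that a number marks a shared day, so the block was not used. In RNA-Seq and GRO-Seq the strain term already matched treated and untreated libraries within a strain. Each group has 1 library and no label names animals, so no further pairing was possible. Among single genes, Nlrp1b by strain was -0.49 with a pseudocount of 50 and had a limma adjusted p of 0.24 with no filter. With no filter Nlrp3 and Casp4 at 1 hr had limma adjusted p = 0.0688 and 0.167, and both had 0.229 in GRO-Seq, where more low genes enter the shared fit. Casp4 in GRO-Seq was 0.99 with a pseudocount of 50. Naip5 at 4 hr against 1 hr was -0.70 with a pseudocount of 50 and had a limma adjusted p of 0.0556 with no filter. In GRO-Seq at 1 hr Naip5 was -1.31 with a pseudocount of 2, a call not used because only its untreated libraries reached the minimum level. Within 25 kb and 100 kb there were 37 and 112 PU.1, 28 and 78 C/EBPa, 32 and 88 p65, 26 and 77 H3K4me2 and 16 and 46 H3K27Ac loci. Low depth limits Nlrp1b most.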
